A study of Mus musculus with 6 samples.

Results

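The genes described here encode the receptors for glutamate, the main excitatory transmitter of the brain, and the small membrane proteins that travel with them. They were chosen by name, as the rows of the gene count table whose symbol is 1 of 36 listed genes, and all 36 were found among the 53715 rows. The list holds 4 AMPA, 7 NMDA, 5 kainate and 1 delta receptor subunit genes, 6 metabotropic receptor genes and 13 genes of auxiliary subunits. Of the 36, 35 passed the filter on low counts. Grin3b, an NMDA receptor subunit gene with 2, 0 and 0 counts in the Caspase3 libraries and 3, 3 and 2 in the GFP libraries, did not pass and was not tested.

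The samples were bulk poly(A) RNA libraries of mouse piriform cortex, the largest area of olfactory cortex. All mice carried Gad2-Cre, so that Cre recombinase is made in cells expressing Gad2, which are mostly GABAergic neurons. The Caspase3 group (n = 3) had received the virus AAV-DIO-Caspase3 in the piriform cortex of 1 side, a Cre-dependent vector for a protease that executes apoptosis, and the GFP group (n = 3) had received AAV-DIO-GFP, its fluorescent protein control. Strain, age, sex, hemisphere sampled and time after injection are not given in the sources used here, and the labels do not say that each library was made from its own mouse. If they were not, the p-values would reflect only library-to-library variation, part of which could be technical. The design text presents the model as a study of epilepsy features after loss of Gad2 neurons.

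Glutamate receptors fall into ion channels and G protein-coupled receptors. AMPA receptors carry the fast excitatory current, NMDA receptors admit calcium when the membrane is already depolarised, and kainate receptors act on both sides of the synapse and modulate release. Metabotropic receptors signal through G proteins, the Grm5 product mainly by raising intracellular calcium and the other Grm products listed here by lowering cyclic AMP. Auxiliary subunits do not bind glutamate themselves. They set where the AMPA and kainate receptors go in the membrane and how fast the channels close and recover.

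Library totals lay between 20424581 and 26268377 counts. CPM values are counts scaled to the library's total after TMM adjustment. Gad2, the gene that drives Cre, stood at 26.7, 38.5 and 38.02 CPM in the Caspase3 libraries. In the GFP libraries it stood at 92.4, 118.0 and 103.7 CPM, with no overlap (edgeR adjusted p = 0.00371). Markers of cortical excitatory neurons were present, with Slc17a7, the vesicular glutamate transporter, at 780.2 to 1221 CPM and Tbr1, a cortical transcription factor, at 155 to 228.3 CPM over the 6 libraries. Across the table, 255 genes were higher and 19 lower in the Caspase3 group in edgeR's quasi-likelihood test with Benjamini-Hochberg adjustment at 0.05. GFP replicate 3 stood apart in striatal markers, whose summed level was 1291 CPM there and 244.2 to 361.3 CPM in the other libraries. Caspase3 replicate 1 stood apart in the members themselves and in oligodendrocyte markers, with values given after the families.

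Of the 35 tested members, 1 fell in the Caspase3 group, none rose and 34 did not pass. The gene that fell was Shisa9. Among all tested genes 0.114% were called lower and 1.53% higher (1.64% in either direction), and 3.91% and 6.72% had an unadjusted p under 0.05. Among the members, 9 were lower and none was higher at an unadjusted p under 0.05. DESeq2 called 2 members lower, Shisa9 and Neto1, and none higher, against 0.462% and 1.87% of its genes. Limma-voom called none in either direction, against 0.0837% and 1.29%. With no filter on low counts edgeR called 5 members lower and none higher (Shisa9, Neto1, Grin2a, Grm4 and Cnih3), against 0.79% and 2.1% of the genes in that fit. The unfiltered fit also called 9 striatal markers lower, none of which passed with the filter. The level of Drd2, 1 of these markers, reached 23.7 CPM only for GFP replicate 3 and was 1.03 CPM or less elsewhere. Its edgeR adjusted p was 1.27e-09 without the filter and 0.247 with it. Calls of the unfiltered fit can thus rest on 1 library. Of its 5 members, Neto1, Grm4 and Cnih3 had groups that overlapped. The median log2 fold change of the tested members was -0.17, with values from -0.79 to 0.40, against a median of 0.00 (-0.0011) over all tested genes. Of the members, 29 of 35 had a negative value, against 50.2% of all tested genes. The median absolute log2 fold change was 0.21 for the members and 0.14 over all tested genes. In bulk tissue, fewer cells of a type and less RNA per cell cannot be told apart.

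For 7 of the 35 members every Caspase3 library lay on the same side of every GFP library. These were Shisa9, Grin2a, Grin2d, Grid1, Grm5, Cacng2 and Cacng5, all lower in the Caspase3 group. Over all tested genes 6.29% were lower without overlap and 8.96% higher without overlap. Apart from Shisa9, none of these 7 passed the adjusted test in edgeR with the filter, DESeq2 or limma-voom.

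**Figure D1:**
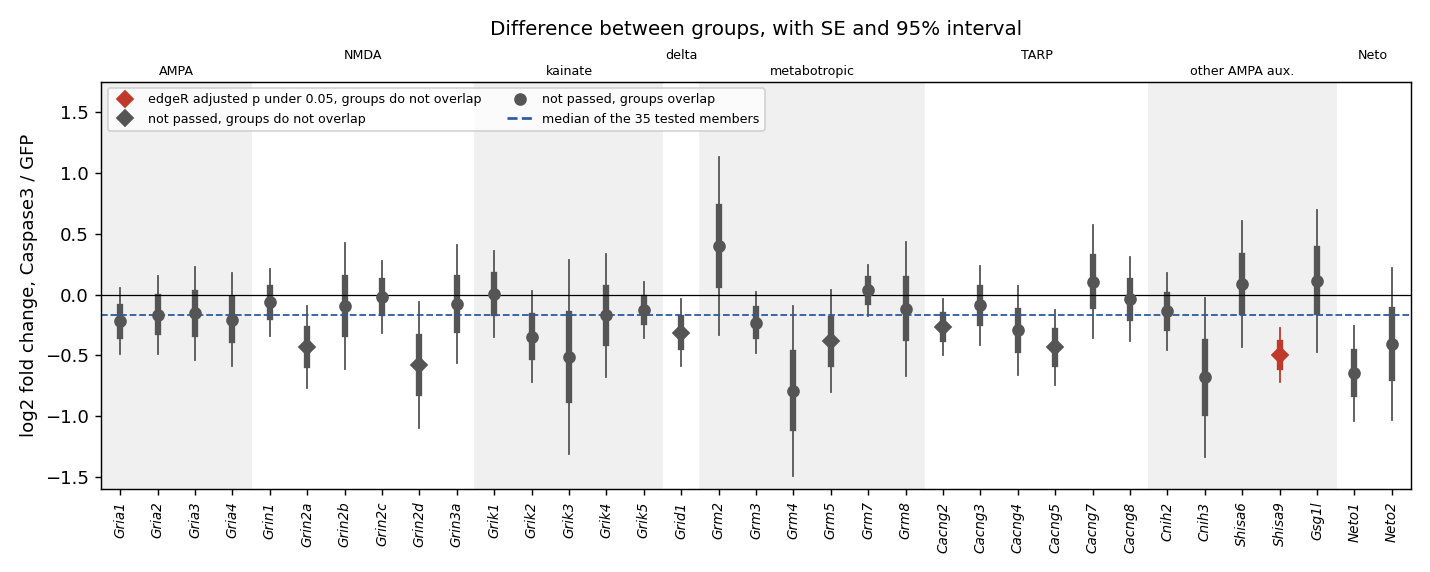
The vertical axis is the log2 fold change of Caspase3 over GFP for the 35 tested members, grouped by family along the horizontal axis, with thick bars for the SE and thin bars for the approximate 95% interval. Shisa9 is the 1 red symbol, diamonds mark the 7 members whose groups do not overlap, and the dashed line at -0.17 is the median of the members.

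Shisa9 (ENSMUSG00000022494, chromosome 16, 11984113 to 12270902, plus strand, GRCm38) encodes CKAMP44, an AMPA receptor auxiliary subunit of the Shisa family that slows the recovery of the channel from desensitisation. It stood at 44.6, 46.2 and 41.2 CPM in Caspase3 replicates 1, 2 and 3, and at 57.4, 68.1 and 61.1 CPM in GFP replicates 1, 2 and 3. All 3 Caspase3 libraries lay below all 3 GFP libraries, and the gap between the nearest libraries was wider than either group's SD. The means were 44.0 ± 2.57 and 62.2 ± 5.45 CPM (SD, n = 3 each), a level 29.3% lower (log2 fold change -0.50 ± 0.10 SE, approximate 95% interval -0.72 to -0.28, adjusted p = 0.0418). The call was close to the threshold. Each of the 6 leave-one-out fits missed it (adjusted p = 0.0629 to 0.182, log2 fold change -0.56 to -0.43: without Caspase3 replicates 1, 2 and 3 the adjusted p was 0.0637, 0.0731 and 0.182, and without GFP replicates 1, 2 and 3 it was 0.0629, 0.179 and 0.110), as did limma-voom (adjusted p = 0.0530), and it held with DESeq2 (adjusted p = 0.00482). Its exons overlap no exon of another gene in GENCODE M21.

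Neto1 encodes an auxiliary subunit of kainate receptors that also associates with NMDA receptors. Its level was 37.1, 49.8 and 36.8 CPM in the Caspase3 libraries and 49.4, 72.4 and 71.9 CPM in the GFP libraries. Caspase3 replicate 2 and GFP replicate 1 met at nearly the same level, and the other GFP libraries were well above all of the Caspase3 libraries. The log2 fold change was -0.65 ± 0.17 (SE), larger than that of Shisa9 but with a wider spread (adjusted p = 0.150 with edgeR, 0.0139 with DESeq2). Without GFP replicate 1 it passed in edgeR (log2 fold change -0.81, adjusted p = 0.0466), and without each of the other libraries it did not (up to 0.464). Neto2, its homologue with the same role at kainate receptors, ranged from 30.2 to 62.4 CPM in the Caspase3 group and from 42.3 to 77.5 CPM in the GFP group (log2 fold change -0.41 ± 0.28 SE, adjusted p = 0.669). It was -0.75 without Caspase3 replicate 2, -0.20 without Caspase3 replicate 1 and -0.14 without GFP replicate 2. Neto1's share of the summed FPKM (fragments scaled to gene length and library size) of Neto1 and Neto2 overlapped between the groups. That share was 68.0%, 58.1% and 62.2% in the Caspase3 libraries and 67.0%, 61.9% and 69.7% in the GFP libraries. The means differed by -3.39 percentage points and did not pass (exact two-sided permutation test, p = 0.5, adjusted over 3 shares 0.75). With 3 against 3 that test cannot give a p below 0.1.

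**Figure D2:**
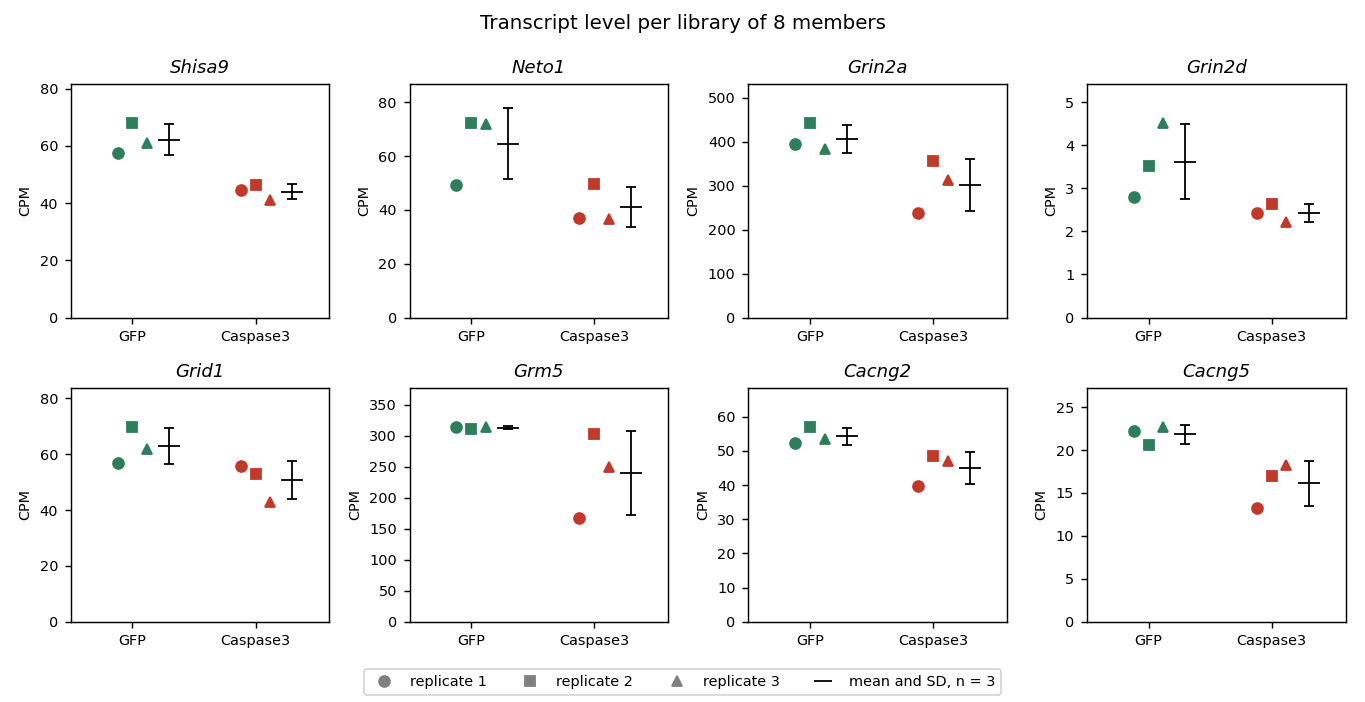
Each panel gives the CPM of 1 gene in every library, with symbols for the replicates and a bar for the mean and SD (n = 3), on an axis that starts at 0. In 7 of the 8 panels the groups do not overlap, and in the Neto1 panel Caspase3 replicate 2 (49.8 CPM) lies just above GFP replicate 1 (49.4 CPM).

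The AMPA receptor subunit genes did not pass, with log2 fold changes between -0.22 and -0.15 (adjusted p = 0.577 to 0.805). Gria2 encodes GluA2, the subunit that makes most AMPA receptors impermeable to calcium, and had the highest level per gene length of the 4. It stood at 626.1, 866.4 and 849.9 CPM in the Caspase3 libraries and at 901.4, 893.5 and 831.7 CPM in the GFP libraries. Caspase3 replicate 1 was the lowest, and the other Caspase3 libraries were within the range of the GFP libraries. The log2 fold change of Gria2 was -0.17 ± 0.14 (SE, approximate 95% interval -0.49 to 0.16). Caspase3 replicate 1 was also the lowest of the 6 libraries for Gria1, Gria3 and Gria4. Without it the values were -0.03 (-0.027) for Gria2, -0.12 for Gria1, 0.02 (0.015) for Gria3 and -0.04 (-0.042) for Gria4.

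The proportions of the AMPA subunits were nearly the same in both groups. Gria2 made up 38.8%, 38.6% and 39.2% of the summed FPKM of the 4 genes in the Caspase3 libraries. In the GFP libraries it made up 41.5%, 36.4% and 37.5%. The difference of the means was 0.37 percentage points (exact two-sided permutation test, p = 0.9, adjusted over 3 shares 0.9), in a design of 3 against 3 that cannot give a p below 0.1. Gria1 held 28.5% ± 1.58 and 29.1% ± 2.23 (SD, n = 3 each), Gria3 22.1% ± 1.08 and 21.7% ± 1.59, and Gria4 10.6% ± 0.481 and between 9.96% and 11.9%. The low level of Caspase3 replicate 1 was shared by the 4 genes: their summed FPKM was 102.0 there and 138.1 to 158.6 in the other libraries.

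Among the NMDA receptor genes none passed, and the 2 genes of the main forebrain GluN2 subunits differed in pattern. Grin2a encodes GluN2A, which gives NMDA receptors of mature synapses fast closing kinetics. It stood at 238.4, 356.4 and 312.4 CPM in the Caspase3 libraries and at 395.3, 443.8 and 382.8 CPM in the GFP libraries. The groups did not overlap, and the log2 fold change of -0.43 ± 0.15 (SE) did not pass (adjusted p = 0.316 with edgeR, 0.138 with DESeq2). It was -0.28 without Caspase3 replicate 1.

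Grin2b encodes GluN2B, the slower subunit that predominates early in development. It stood at 452.0, 943.9 and 790.9 CPM in the Caspase3 libraries and at 799.5, 818.4 and 718.6 CPM in the GFP libraries. The Caspase3 group held both the lowest and the highest library, and the log2 fold change was -0.10 ± 0.23 (SE, approximate 95% interval -0.62 to 0.43). It was 0.16 without Caspase3 replicate 1. Grin2b formed 57.8%, 65.7% and 64.6% of the summed FPKM of Grin2a and Grin2b in the Caspase3 libraries and 59.3%, 57.1% and 57.5% in the GFP libraries. Caspase3 replicate 1 lay within the range of the GFP libraries and the other 2 above it, and the means, 62.7% ± 4.28 and 58.0% ± 1.19 (SD, n = 3 each), differed by 4.70 percentage points. That is more than either SD, and the difference did not pass (exact two-sided permutation test, p = 0.2, adjusted over 3 shares 0.6). Of the summed FPKM of all 7 NMDA receptor genes, Grin2a made up 23.5%, 23.9% and 23.9% in the Caspase3 libraries and 28.4%, 29.4% and 27.5% in the GFP libraries. These shares did not overlap, were picked out after their values were seen and were not tested.

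Grin2d, a GluN2 subunit gene expressed in many interneurons, was low throughout. It stood at 2.42, 2.64 and 2.21 CPM in the Caspase3 libraries and 2.80, 3.52 and 4.52 CPM in the GFP libraries. The groups did not overlap, and the log2 fold change of -0.58 ± 0.23 (SE) did not pass (adjusted p = 0.400). The nearest libraries, at 2.64 and 2.80 CPM, rested on 58 and 60 counts. The highest library was GFP replicate 3, the library high in striatal markers. In the leave-one-out fits the value of Grin2d ran from -0.73 to -0.40 and did not pass. An antisense gene shares exon sequence with Grin2d. Grin1, which encodes the subunit that every NMDA receptor contains, had a value of -0.06 ± 0.12 (SE, approximate 95% interval -0.34 to 0.21). Grin2c and Grin3a had values of -0.02 and -0.08 and did not pass.

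Summed marker levels of GABAergic neurons and microglia differed between the groups beside these values, and those of excitatory neurons overlapped. The 10 GABAergic neuron markers, each with counts, summed to 440.3 to 697.8 CPM in the Caspase3 group and 801.0 to 1129 CPM in the GFP group. Of these, 10 of 10 had negative log2 fold changes, and Gad2 alone passed in edgeR. The highest sum was in GFP replicate 3, the library high in striatal markers. Slc32a1 stood at 58.2 CPM there and at 21.7 and 31.3 CPM in GFP replicates 1 and 2, while Gad2 was highest in GFP replicate 2. The striatal markers, 9 of 9 tested, also had negative values, and none passed in edgeR. The 7 microglia markers summed to 503.2 to 701.2 CPM against 279.5 to 339.6 CPM, and 4 of 7 rose. The 8 excitatory neuron markers summed to 1368 to 1516 CPM against 1115 to 1705 CPM, none passed in edgeR, DESeq2 or limma-voom, and none had an unadjusted p under 0.05. The part of these cell populations in the members' differences was not tested.

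The kainate receptor subunit genes did not pass (adjusted p = 0.516 to 0.999). Grik5, which encodes a high-affinity subunit that needs a partner to reach the membrane, had the highest level per length of the 5. It stood at 121.2, 103.3 and 114.0 CPM in the Caspase3 libraries and 111.7, 127.3 and 130.6 CPM in the GFP libraries. The groups overlapped, with a log2 fold change of -0.13 ± 0.10 (SE), which was -0.07 (-0.068) without Caspase3 replicate 2 and -0.19 without GFP replicate 1. Grik2, which forms channels on its own or with Grik5, had a log2 fold change of -0.35 ± 0.17 (SE) and Grik3 of -0.51 ± 0.35 (SE). Grik3 ranged widely within the GFP group, from 13.7 to 41.5 CPM, and its value was -0.86 without GFP replicate 1 and -0.23 without GFP replicate 2. The value of Grik2 was -0.20 without Caspase3 replicate 1 and -0.21 without GFP replicate 3. Grik1 and Grik4 had values of 0.00 (0.0013) and -0.17.

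Grid1 encodes the delta receptor GluD1, which links the postsynaptic membrane to presynaptic neurexins through secreted cerebellins. It stood at 55.9, 53.0 and 43.0 CPM in the Caspase3 libraries and at 56.9, 69.8 and 61.9 CPM in the GFP libraries. The groups were adjacent rather than apart, since Caspase3 replicate 1 and GFP replicate 1 differed by under 1 CPM. The log2 fold change of -0.31 ± 0.12 (SE) did not pass (adjusted p = 0.393).

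Of the 6 metabotropic receptor genes none passed, 4 had negative and 2 positive values. Grm5 encodes mGlu5, the receptor in this list that couples to phospholipase C. It stood at 167.3, 303.3 and 249.7 CPM in the Caspase3 libraries and at 314.7, 310.5 and 314.6 CPM in the GFP libraries. The GFP libraries were almost identical, at a mean of 313.3 ± 2.39 CPM (SD, n = 3), and the Caspase3 libraries spread over a much wider range below them, at 240.1 ± 68.5 CPM. The log2 fold change was -0.38 ± 0.19 (SE, adjusted p = 0.521), and it was -0.18 without Caspase3 replicate 1.

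Grm3, a receptor that astrocytes as well as neurons make, had the highest level per length among the metabotropic genes. It stood at 94.8, 85.6 and 71.6 CPM in the Caspase3 libraries and at 100.8, 94.4 and 100.5 CPM in the GFP libraries. Only Caspase3 replicate 1 reached into the range of the GFP group (log2 fold change -0.23 ± 0.11 SE, adjusted p = 0.519, and -0.14 without Caspase3 replicate 3). The 8 astrocyte markers summed to 8272 to 10917 CPM in the Caspase3 group and 9247 to 11560 CPM in the GFP group, and 1 of them, Gfap, rose.

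Grm4, a presynaptic autoreceptor, had the most negative value of all members, -0.79 ± 0.31 (SE, adjusted p = 0.391), at 11.1, 6.41 and 6.19 CPM against 8.48, 13.6 and 18.8 CPM. The groups overlapped, and the highest library was GFP replicate 3, the library high in striatal markers. Without that library the value was -0.50 (adjusted p = 0.598). Grm2, which belongs to the same subgroup as Grm3, had the most positive value, 0.40 ± 0.32 (SE, adjusted p = 0.729), with the Caspase3 group on both sides of the GFP group (4.07 to 11.1 against 5.31 to 7.48 CPM). Single libraries moved it from 0.11, without Caspase3 replicate 3, to 0.72, without Caspase3 replicate 1. Grm7 and Grm8 had values of 0.03 and -0.12, and the approximate 95% interval of Grm7 ran from -0.18 to 0.25. The summed FPKM of the 6 genes was 58.4, 69.7 and 60.3 in the Caspase3 libraries. In the GFP libraries it was 75.4, 75.7 and 76.6, with no overlap. This sum was not a planned comparison and was not tested. Grm3 and Grm5 held 42.6% and 40.2% of it in the GFP group. The same sums of the AMPA, NMDA, kainate and TARP genes overlapped between the groups.

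**Figure D3:**
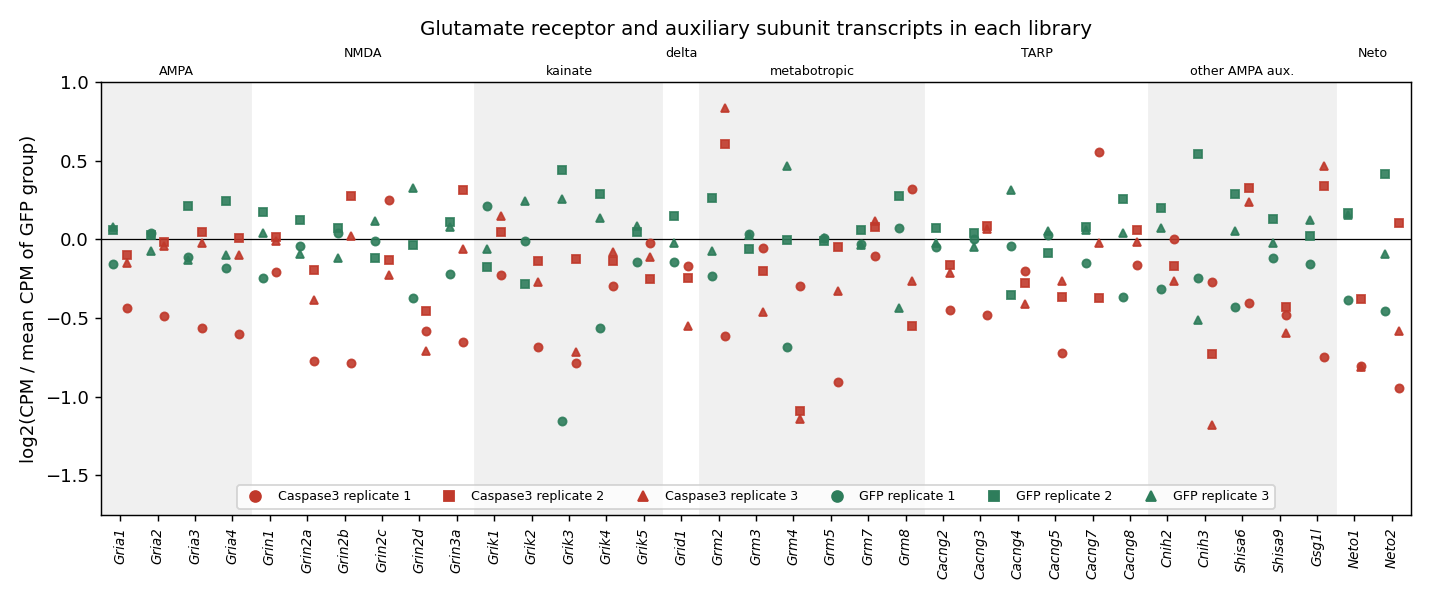
The vertical axis is the log2 ratio of the CPM of each library to the mean CPM of the GFP group, for the 35 tested members grouped by family along the horizontal axis. The symbol shapes mark replicates. The red circles of Caspase3 replicate 1 lie below all other symbols for 17 members, among them the 4 AMPA genes, Grin2a, Grin2b, Grm5, Cacng2 and Cacng5. They lie above all others for 3 members, Cacng7, Grin2c and Grm8.

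The TARPs, transmembrane proteins that bring AMPA receptors to the synapse and slow their closing, were tested in 6 cases and none passed. Cacng2 encodes stargazin, the founding member. It stood at 39.7, 48.6 and 46.9 CPM in the Caspase3 libraries and at 52.4, 57.0 and 53.4 CPM in the GFP libraries. The groups did not overlap, and the log2 fold change was -0.27 ± 0.10 (SE, adjusted p = 0.370). An antisense gene shares exon sequence with Cacng2.

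Cacng5 encodes a TARP of the second type, which modulates AMPA receptors of particular subunit makeup. It stood at 13.2, 16.96 and 18.2 CPM in the Caspase3 libraries and at 22.2, 20.6 and 22.7 CPM in the GFP libraries. Here too the groups did not overlap, and the log2 fold change of -0.44 ± 0.14 (SE) did not pass (adjusted p = 0.254 with edgeR, 0.184 with DESeq2).

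Cacng7, of the same type as Cacng5, had the highest level per gene length of all 36 members. It stood at 264.7, 139.1 and 177.1 CPM in the Caspase3 libraries and at 162.1, 190.0 and 187.2 CPM in the GFP libraries. Caspase3 replicate 1 was far above the other 5 libraries, and the log2 fold change of 0.11 ± 0.20 (SE) became -0.18 without it. Cacng3, Cacng4 and Cacng8 had values of -0.09, -0.29 and -0.04 and did not pass, and that of Cacng4 was -0.12 without GFP replicate 3 and -0.44 without GFP replicate 2. The TARP genes therefore ranged from -0.44 to 0.11.

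The cornichons Cnih2 and Cnih3 act as export chaperones of AMPA receptors and slow the closing of the channel. Cnih2 stood at 50.9, 45.2 and 42.2 CPM in the Caspase3 libraries and at 40.7, 58.2 and 53.4 CPM in the GFP libraries, with full overlap (log2 fold change -0.14 ± 0.14 SE, adjusted p = 0.780). It was -0.21 without Caspase3 replicate 1, -0.28 without GFP replicate 1 and -0.03 (-0.029) without GFP replicate 2. An exon of Cnih2 overlaps Yif1a. Cnih3 had a log2 fold change of -0.68 ± 0.29 (SE, adjusted p = 0.445) and spread from 29.0 to 60.3 CPM within the GFP group. It was -0.31 without GFP replicate 2 and -0.94 without Caspase3 replicate 1. With GFP replicate 3 and Caspase3 replicate 1 both removed, Cnih3 passed (-1.14, adjusted p = 0.0348), and Shisa9 did not (adjusted p = 0.0610).

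Gsg1l, which encodes an auxiliary subunit that reduces AMPA receptor currents, stood between 50.7 and 117.3 CPM in the Caspase3 group and between 76.3 and 92.3 CPM in the GFP group. Its log2 fold change was 0.11 ± 0.26 (SE). Shisa6, a relative of Shisa9 that traps AMPA receptors at the postsynaptic density, had a value of 0.09 ± 0.23 (SE, adjusted p = 0.926). The difference between Shisa9 and its relative was not tested.

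Per gene length, the members spanned a wide range. FPKM values use the gene lengths in the table, which lay between 1237 bases for Cnih2 and 24842 bases for Grin2b, so the order depends on those lengths. In the GFP group Cacng7 was highest at 73.6 ± 6.43 FPKM (SD, n = 3), followed by Gria2 at 56.3 ± 2.65, Gria1 at 42.6 ± 3.80 and Cnih2 at 41.0 ± 7.40 FPKM. Gria1 and Cnih2 differed by less than their SD. Grm3, Gria3, Grin2b and Grm5 came next, between 30.5 and 32.3 FPKM, and the differences between neighbours in this group were smaller than the larger SD of each pair.

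At the lower end stood the subunits of restricted expression. Grm8, Grik1, Grm2, Grik4 and Grin2d had means between 0.542 and 1.72 FPKM in the GFP group, and Grin3b 0.0350 FPKM. In the Caspase3 group the order began with the same 2 genes, Cacng7 and Gria2, at 78.4 ± 25.5 and 49.8 ± 8.87 FPKM, and the lowest Cacng7 library (56.8) was just above the highest Gria2 library (55.6). Shisa9 moved from rank 17 to rank 19 and Neto1 from rank 13 to rank 15. Some other members moved further, such as Grm4 from rank 28 to 33, Cnih3 from 15 to 18 and Gsg1l from 12 to 9.

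**Figure D4:**
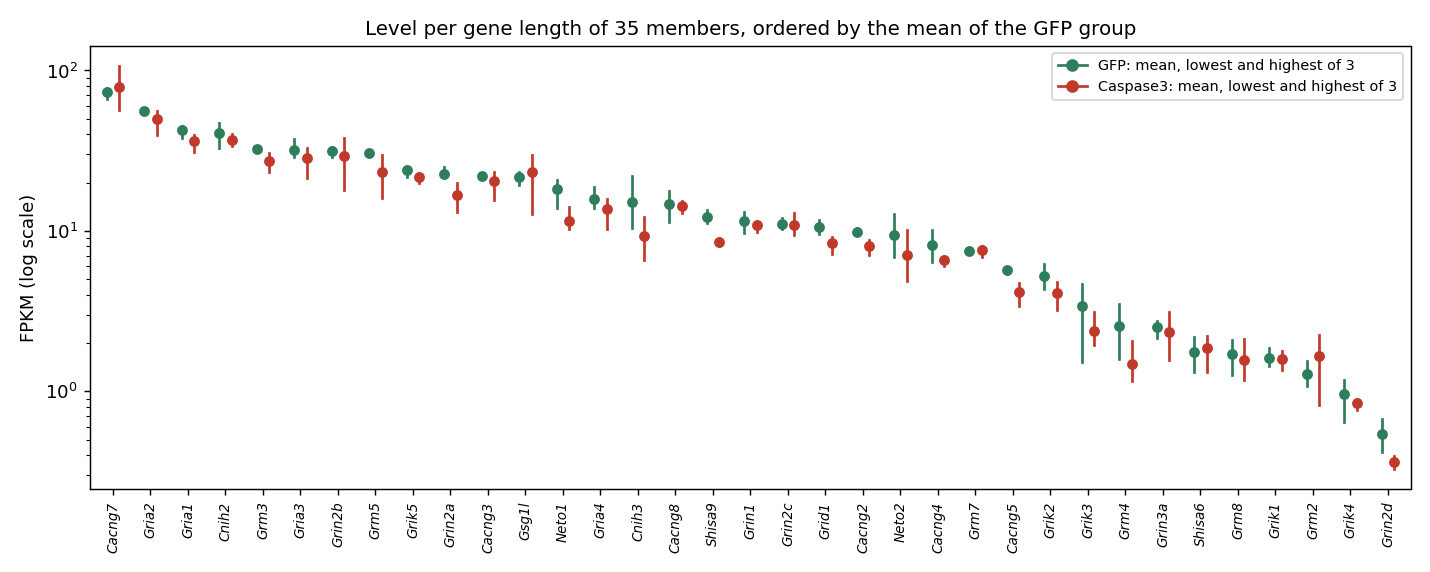
The vertical log axis gives FPKM of 35 members, with dots for the group means and lines from the lowest to the highest of 3 libraries, ordered by the GFP mean along the horizontal axis. Grin3b, at 0.0350 FPKM in the GFP group, is left out. The lines of the groups are separate for Shisa9, Grin2a, Grin2d, Grid1, Grm5, Cacng2 and Cacng5, and for Grm3, whose CPM values overlap.

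Caspase3 replicate 1 weighed on many of these comparisons. It had the lowest CPM of the 6 libraries for 17 of the 35 tested members (48.6%), against 23.3% of all tested genes. Caspase3 replicate 3 was lowest for 9 members, Caspase3 replicate 2 for 3 and GFP replicate 1 for 6, and GFP replicates 2 and 3 for none. GFP replicate 2 was highest for 14 members (40.0%, against 20.1% of all tested genes). The median coefficient of variation of the members was 18.1% within the Caspase3 group and 13.9% within the GFP group, against 10.3% and 9.38% for the 12422 tested genes at or above the lowest mean CPM of a member.

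Other measures also set Caspase3 replicate 1 apart. The 6 oligodendrocyte markers summed to 12341 CPM in it and to 7482 to 8793 CPM in the other libraries. By gene length, the median log2 ratio of this library to the gene's mean was 0.07 for members under 2500 bases (n = 3), -0.47 from 2500 to under 5000 bases (n = 8), -0.23 from 5000 to under 10000 bases (n = 18) and -0.59 at 10000 bases or more (n = 6). The members' values thus did not fall steadily with length. Over all tested genes the medians of the same classes were 0.06, 0.03, -0.02 and -0.09. The part of gene length or of cell composition in the members' low values was not tested. Slc17a7, at 1138 CPM in this library, was within the range of the other libraries. Without Caspase3 replicate 1 the median log2 fold change of the members was -0.18, with 24 of 35 negative and none called. Without GFP replicate 3 it was -0.21, with 29 of 35 negative and none called.

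**Figure D5:**
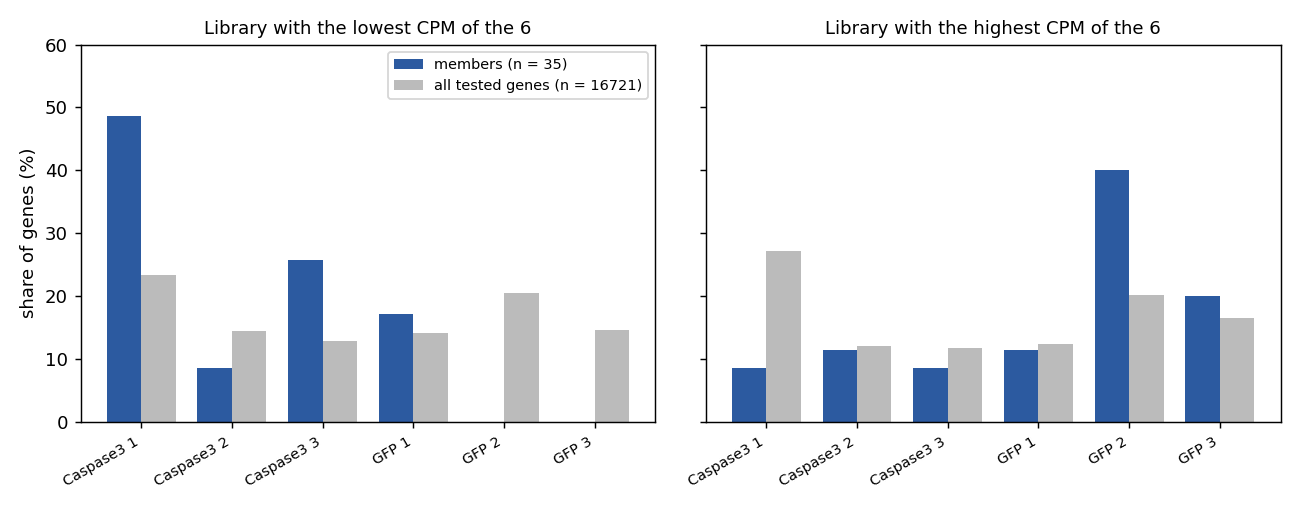
Bars give the share of genes, in percent, for which each library had the lowest (left) or highest (right) CPM of the 6, in blue for the 35 tested members and in grey for all 16721 tested genes. Caspase3 replicate 1 is lowest for 48.6% of members and 23.3% of all genes, and GFP replicate 2 is highest for 40.0% and 20.1%.

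The other genes of the glutamate synapse were taken from 5 lists with 69 genes, of which 67 were tested. None passed in edgeR in either direction, 7 were lower and 3 higher at an unadjusted p under 0.05, DESeq2 called 3 lower and none higher, and limma-voom called none. The median log2 fold change was -0.12, and 48 of 67 values were negative. The 3 genes that DESeq2 called, named after their values were seen, were Olfm3, a secreted partner of AMPA receptors, Actn2, an actinin that binds NMDA receptors, and Plcb1, the phospholipase downstream of group I metabotropic receptors (log2 fold changes -0.85, -0.90 and -0.38, edgeR adjusted p = 0.209, 0.235 and 0.188). Actn2 stood at 19.7 CPM in GFP replicate 3, the library high in striatal markers, and at 8.95 and 10.45 CPM in the other GFP libraries.

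Within the lists, none of 20 scaffold genes passed, and Dlgap1, a linker protein of the postsynaptic density with the highest mean CPM of this list, stood at 632.8 ± 45.1 and 705.5 ± 91.0 CPM (SD, n = 3, Caspase3 and GFP). None of 18 tested trafficking and assembly genes passed, where Nsf, an ATPase that sustains AMPA receptors at the membrane, stood at 845.5 ± 65.9 and 959.8 ± 148 CPM. None of 10 tested NMDA receptor partners passed. None of 8 glutamate transporter genes passed, and Slc1a2, the main astrocytic transporter, had a log2 fold change of -0.13 ± 0.18 (SE). None of 11 effector genes passed, and Gnao1, an inhibitory G protein subunit, had a value of -0.17 ± 0.10 (SE). Without Caspase3 replicate 1, 2 of the 67 genes were called higher, Nptx1, a secreted pentraxin that clusters AMPA receptors, and Slc17a6, a vesicular glutamate transporter.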

How the data were processed

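Poly(A) RNA was measured in 6 libraries, 3 per group, grouped and numbered from the sample titles. Per the labels' protocols, TRIzol was used for extraction and the kit marks the strand by labelling second-strand cDNA. Per the submitters' processing notes, the tools were HISAT2, featureCounts and DESeq2 on mm10 (GRCm38), with no role or version for each. Whether counting used the strand is not known here. The deposited count table holds whole-number read counts per gene, and the deposited FPKM values equal the count divided by gene length and a constant for each library.

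Counts were tested with edgeR 4.0.16 in R 4.3.3 (glmQLFit and glmQLFTest after filterByExpr and TMM scaling, 16721 genes, Benjamini-Hochberg adjustment over all of them, threshold 0.05). CPM values use TMM-scaled totals. The SE is the absolute log2 fold change divided by the square root of F, and the approximate 95% interval is built from it. A level of 3 counts corresponds to 0.118 to 0.142 CPM, for counting error only. FPKM values were used for levels between genes, for subunit shares and in alternatives. Where a symbol of a list had 2 rows, the row with more counts was used.

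Alternatives were other scalings, DESeq2 1.42.0, limma-voom and limma 3.58.1 on log2(FPKM + 0.1) and log2(FPKM + 1), no filter, a replicate block, and leave-one-out fits. Leaving out Caspase3 replicate 1 and GFP replicate 3 together was chosen after seeing the data. Values in every library are given for members that passed in edgeR or DESeq2 or whose groups do not overlap, and for the member with the highest mean FPKM of each family. In each pathway list called genes are named, or otherwise the gene with the highest mean CPM, which for 1 list is not reported here. The members and lists were chosen with earlier results of these data known. The tests were run on counts simulated with edgeR's fitted dispersions, as a check on the direction of the calls. The recovery rates are not reported here, so the check does not show how often differences of a given size would pass. Replicates differed by more than sampling noise (mean chi-square per gene 12.6 to 32.8). All 36 members are in GENCODE M21. With miRNA and misc_RNA genes left aside, the exons of 9 overlap those of another gene, so reads may be shared (Cnih2, Grin1, Grin2b, Grin2d, Grin3b, Cacng2, Grm2, Grm7 and Neto1). Figures were drawn with Matplotlib 3.10.9.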

Additional observations from a re-analysis of the deposited data

How the results depend on the processing

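The count of members called lower, 1 in the edgeR fit, was 0 with library totals only, limma-voom, limma on log2(FPKM + 0.1) and limma on log2(FPKM + 1), 2 with DESeq2, 5 with no filter and 0 to 1 in the leave-one-out fits, where the 1 was Neto1 without GFP replicate 1. No alternative called a member higher. Calls of the unfiltered fit can rest on 1 library, as for Drd2 above. The members' median kept its sign, from -0.29 to -0.10. Of the pathway genes, DESeq2 called 3 lower, the unfiltered fit 3 lower and 3 higher, and leave-one-out fits 0 to 2 higher, the 2 without Caspase3 replicate 1. Without Caspase3 replicate 1 and GFP replicate 3 together, 2 pathway genes were higher and 77 of all genes lower. Over all genes, against 19 lower and 255 higher, DESeq2 called 98 and 397, log2(FPKM + 1) 10 and 160, and no filter 250 and 663. Leave-one-out fits called 2 to 33 lower (33 without Caspase3 replicate 1, 7 without Caspase3 replicate 3, 2 without GFP replicate 2) and 15 to 252 higher (15 without GFP replicate 2, 131 without GFP replicate 3). With a replicate block, 2 members (Neto1, adjusted p = 0.0393, and Shisa9, 0.0419) and 43 of all genes were lower and 378 higher, and sign-flip p-values of the 3 shares were 1, 0.5 and 0.5. Same-numbered libraries correlated at 0.072, 0.22 and 0.043 in their deviations, so the numbers were not taken as pairs.

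Small values changed sign. Without both libraries the log2 fold change was 0.023 for Grin1, 0.10 for Grin2b, 0.18 for Grin3a, 0.053 for Cacng3, 0.039 for Cacng8 and -0.15 for Cacng7. With library totals it was 0.041 for Grin2c and 0.022 for Cacng8. Grik1 was -0.0097 with DESeq2 size factors, -0.010 with DESeq2, -0.013 with log2(FPKM + 0.1) and -0.0081 with log2(FPKM + 1). Leave-one-out ranges that crossed 0 were -0.27 to 0.015 for Gria3, -0.17 to 0.031 for Grin1, -0.33 to 0.16 for Grin2b, -0.17 to 0.056 for Grin2c, -0.33 to 0.14 for Grin3a, -0.097 to 0.12 for Grik1, -0.38 to 1.25e-04 for Grik4, -0.025 to 0.10 for Grm7, -0.40 to 0.055 for Grm8, -0.18 to 0.076 for Cacng3, -0.18 to 0.30 for Cacng7, -0.19 to 0.11 for Cacng8, -0.087 to 0.28 for Shisa6 and -0.11 to 0.41 for Gsg1l. The difference in the Gria2 share ran from -0.66 to 1.88 percentage points (-0.66 without GFP replicate 2, -0.11 without GFP replicate 3). The cause was not tested.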
